A study of Mus musculus with 37 samples.

Results

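The adaptor proteins, IRAK kinases and TRAF ligases that carry the Toll-like receptor signal were described here by the open reading frames (ORFs) that ribosome footprints marked as translated in mouse dendritic cells. They were 10 genes, namely the adaptors Myd88, Tirap, Ticam1 and Ticam2, the kinases Irak1, Irak2, Irak3 and Irak4, and the ligases Traf3 and Traf6. The ORFs described were selected on their name in the authors' list, all those of the 10 symbols, and were 31 of 22367 ORFs. The lowest score in the list was 500. The genes were chosen with this list known, so that each has an ORF in it is no finding. The cells were bone marrow-derived dendritic cells of C57BL/6J mice of 6 to 8 weeks. The 37 libraries were naive cells, cells given lipopolysaccharide (LPS) at 100 ng/mL for 0.5, 1, 2, 4, 6, 8, 9 or 12 h, and mock-treated cells of the same times. Cycloheximide at 100 ug/mL for 1 min was used in 16 LPS, 8 mock and 2 naive libraries, and no inhibitor in 8 LPS libraries and 1 naive library. Of the inhibitors that hold ribosomes at starts, harringtonine (1 ug/mL, 5 min) was used in 1 library and lactimidomycin (50 ug/mL, 30 min) in 1, each a mix of several LPS times. The list was 1 for all libraries together and held no value per library. Depth is thus unknown, no ORF had a replicate, and LPS, mock, naive and inhibitor groups were not compared.

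Toll-like receptors sense microbial molecules and, once engaged, recruit adaptors through TIR domains. MyD88, brought to the receptor by TIRAP, assembles IRAK4, IRAK1 and IRAK2, which pass the signal to the ubiquitin ligase TRAF6 and on to NF-kB and MAP kinases. TRIF, encoded by Ticam1 and bridged to TLR4 by TRAM, encoded by Ticam2, signals through TRAF3 to type I interferon genes. IRAK3, also called IRAK-M, restrains the pathway. A short ORF in the leader of an mRNA, the stretch before its main start, can limit how many ribosomes reach the main ORF.

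An ORF runs from its start to an in-frame stop, and its length is given in codons without the stop codon. The longest ORF of a gene is called its main ORF, and the others are named by their place against it. The score was assigned to each ORF by the authors, ran from 500 to 991 in the list and is used only to describe and rank. The lowest member ORF scored 541. Coordinates are mm9, counted from 1. Comparisons with the list are descriptions with no test, since ORFs and genes are not replicates. Known protein lengths and roles are given as background and were not read from the files.

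Of the 31 ORFs, 10 were main ORFs, 10 lay upstream of a main start, 7 used another in-frame start with the main stop, and 2 were splice variants with the start and stop of the main ORF. Ticam2 had 1 in-frame isoform with another stop, and Irak3 had 1 ORF inside the main span. The 4 adaptors held 18 ORFs, among them 9 of the 10 upstream ORFs. The 4 IRAKs held 10 ORFs and the 2 TRAFs held 3. Traf3 was the member with a single ORF, 1 of 10, while 43.6% of all 10403 families in the list had a single ORF. A family is the ORFs of 1 name on 1 chromosome and strand. Assembled transcripts without a gene name count as families too, so shares over all families are not over named genes alone. The median was 2 ORFs per gene in the members and 2 over all families. The adaptors' main ORFs scored 541 to 893, below 900 in every one of the 4, and those of 5 of the 6 IRAKs and TRAFs scored 942 or more. Irak1, at 817, was the exception. A main score of 900 or more was given to 5 of the 10 members, against 56.7% of all families. The members' main scores had a median of 917.5, against 926 over all main ORFs.

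**Figure D1:**
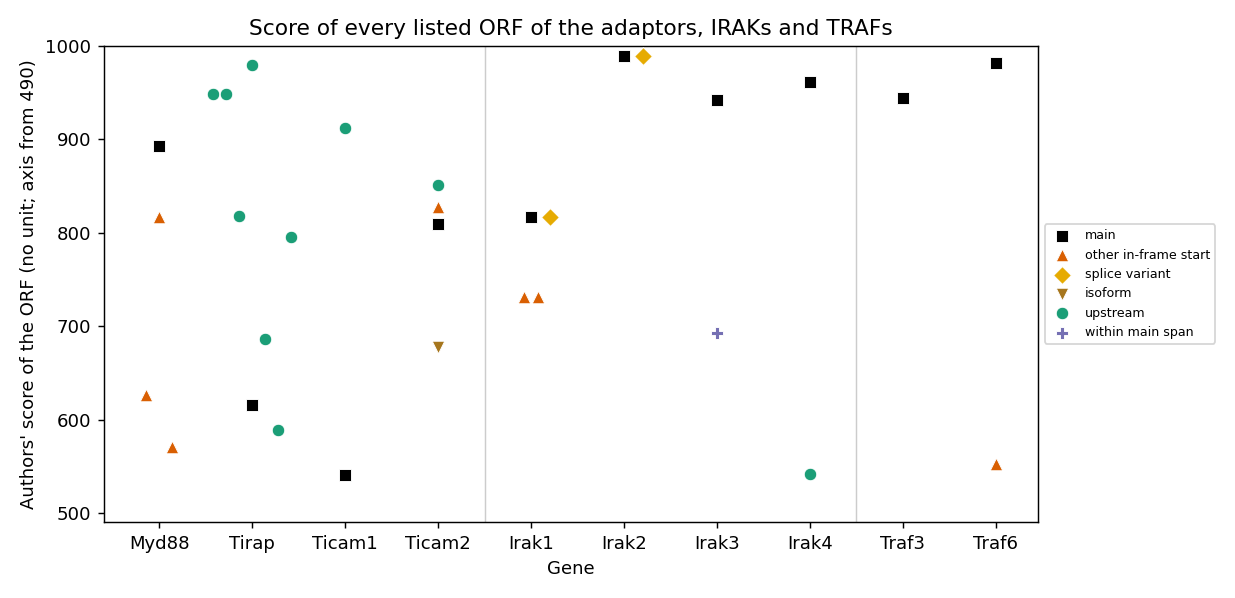
Score given by the authors (vertical axis, no unit, not starting at 0) for each of the 31 ORFs, by gene, with adaptors, IRAKs and TRAFs set apart by grey lines. Black squares are main ORFs and coloured symbols the other classes; green upstream ORFs lie above the black square in Tirap (6 of 7), Ticam1 and Ticam2, and below it in Irak4.

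Myd88, the adaptor that most Toll-like receptors share, had 4 starts that read into 1 stop codon, at chromosome 9, 119246474, on the minus strand. The longest ORF began at 119249110, had 307 codons and scored 893. The next began 11 codons further in, at 119249077, with 296 codons, the length of the annotated mouse MyD88 protein, and scored 626. The third began at 119249029 with 280 codons and scored 817. The shortest began at 119248903 with 238 codons and scored 571. All 4 lay on 1 listed transcript of 2805 bases in 6 exons, and all began in its first exon. They differed only at the N terminus, where MyD88 carries its death domain, and had in common the last 238 codons, the end with its TIR domain. The scores did not follow the order of the starts, since the ORFs of 307 and 280 codons scored higher than the 296-codon ORF between them. Having 3 or more other in-frame starts was a feature of 197 of 10403 families (1.89%). Other in-frame starts scored above their main ORF in 42.7% of cases over the list, and in none of the 3 of Myd88.

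Tirap, the bridging adaptor that brings MyD88 to the membrane, had 7 upstream ORFs. Its main ORF of 206 codons, at chromosome 9, 34995496 to 34996842 on the minus strand, is shorter than the annotated TIRAP protein and scored 615. That score was above that of only 8.68% of main ORFs. The 7 upstream ORFs came from 6 starts and ended at 4 stops. As many upstream ORFs or more, those over the main start included, were listed for 29 of 10403 families (0.279%).

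Most of the Tirap upstream ORFs converged on 1 stop. Those of 101, 66, 66 and 18 codons all ended at 34998760. The ORF of 101 codons and 1 of those of 66 codons began at the same base, 35007455, 95 bases into their transcripts, and both scored 948. The transcript of the 101-codon ORF has a further exon of 109 bases and a first exon shorter by 4 bases, which together add 105 bases or 35 codons. That transcript also lacks the 639-base exon that holds the main start, so the 101-codon ORF is the only member upstream ORF whose listed transcript has no main start. The other ORF of 66 codons began at 35006819 and scored 818. The 18-codon ORF began at 34998960 and scored 589, the lowest of the 7 and the only one below the main ORF. In the list, 26.9% of upstream ORFs, those over the main start included, ended at the stop of another upstream ORF of their family. Of the 10 of the members, 4 did, all of them in Tirap.

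The other 3 Tirap upstream ORFs each had a stop of their own. The best scoring member upstream ORF, at 980, had 33 codons (34999180 to 34999281), and 95.6% of the upstream ORFs in the list scored lower. Its stop lay 192 bases before the main start. A second ORF of 33 codons (34998606 to 34998707) scored 686 and lay nearest to the main ORF, ending 41 bases before its start. An ORF of 4 codons (34998746 to 34998760) scored 795. Its first base, 34998760, was the last base of the stop codon that the 101-, 66- and 18-codon ORFs used, so the start and the stop overlapped by 1 base. An upstream ORF that began on the last base of another ORF's stop was found in 13 families of the list.

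**Figure D2:**
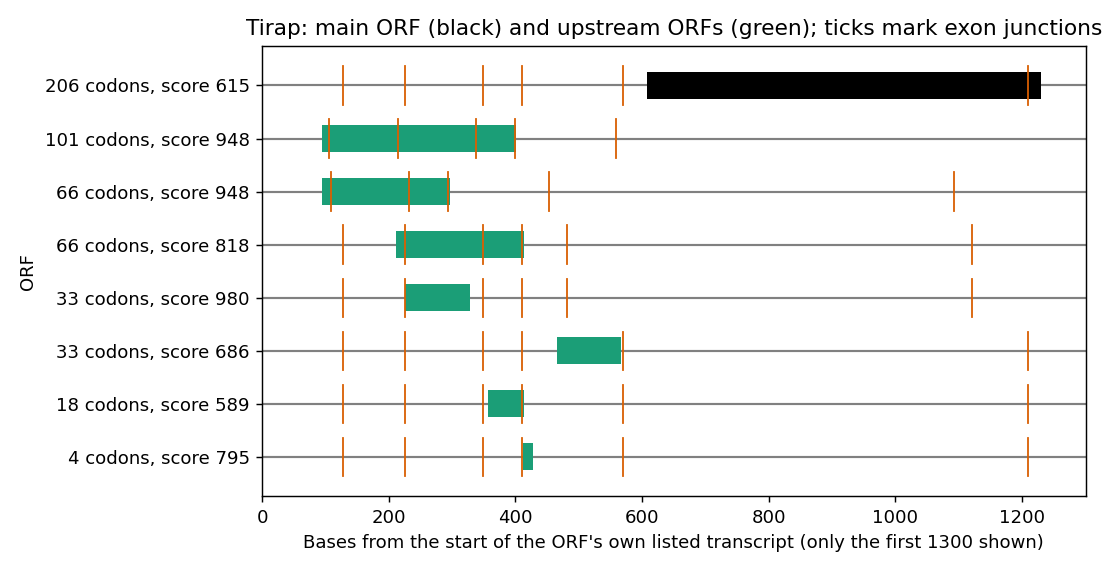
Tirap ORFs drawn to scale in bases from the start of the listed transcript each one lies on (horizontal axis, 5′ part only), with 1 row per ORF, its codons and score at the left, and orange ticks at exon junctions. The main ORF (black) begins 608 bases into its transcript, and the green upstream ORFs lie before that place, several of them spanning exon junctions.

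Ticam1, which encodes TRIF, the adaptor of TLR3 and of the interferon arm of TLR4, had 1 upstream ORF that scored far above the main ORF. The upstream ORF had 32 codons (chromosome 17, 56411471 to 56411569, minus strand) and scored 912, while the 715-codon main ORF (56409318 to 56411465) scored 541. Only 2.95% of main ORFs scored lower than that. Both lay in the second exon of a listed transcript with 2 exons. The upstream ORF stopped 5 bases before the main start and was in another frame. The annotated TRIF protein is somewhat longer than 715 codons. In-frame starts before that of the 715-codon ORF were not analysed here. The upstream class and the 5 bases are measured from the start of the 715-codon ORF, and could change with an earlier main start.

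Ticam2, which encodes TRAM, the adaptor that links TLR4 to TRIF, was the only member with both an upstream ORF and another in-frame start. Its ORFs differed with the splicing of the second exon. On a transcript in which that exon has 60 bases, an ORF began at base 46732500 of chromosome 18, minus strand, and ran through 251 codons with a score of 809. On the other listed transcript the same exon has 103 bases, 43 more and no multiple of 3, and the ORF from the same base ended after 14 codons with a score of 678. That second transcript also held a 232-codon ORF, the length of the annotated TRAM protein, that began at 46720672 in the third exon and scored 828, and a 31-codon upstream ORF in the first exon (46733966 to 46734061) that scored 851. The 251- and 232-codon ORFs had the same stop and differed by 19 codons at the N terminus, the end at which TRAM is known to be myristoylated. The 3 larger values, 809, 828 and 851, lay within 42 of each other. The 14-codon ORF, classed as an isoform, shared only 1 codon with the 251-codon ORF. On its transcript it ended before the start of the 232-codon ORF. With 1 ORF kept per stop codon, the 232-codon ORF was the main ORF and the 14-codon ORF was classed as upstream. An isoform that ends at another stop was listed in 6.76% of families and in 1 of 10 members.

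Irak1, a kinase of the receptor complex, had 4 ORFs that combined 2 starts with 3 listed transcripts and 1 stop (chromosome X, 71260779, minus strand). From the outer start, 71269084, ran ORFs of 711 and 710 codons, the latter the length of the annotated IRAK1 protein, and both scored 731. From the inner start, 71268985, which lies 33 codons further in, ran ORFs of 717 and 678 codons, and both scored 817. The inner start thus had the higher score, by 86. The 711- and 710-codon ORFs differ by an exon of 192 or 189 bases, a difference of 1 codon. The 717-codon ORF includes an exon of 117 bases, or 39 codons, which the other 3 ORFs lack. Both starts lie in the first exon, so the N terminus, the end of IRAK1 that carries the death domain, differs by 33 codons between them.

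Irak2, a partner of IRAK1 and IRAK4 in the same complex, had the best main score of the members, 989, which was above that of 95.9% of main ORFs. It had 1 start (chromosome 6, 113588542, plus strand) and 1 stop (113643774), and 2 ORFs of 622 and 555 codons. The shorter one skips an exon of 201 bases, or 67 codons, and also scored 989. Splice variants of this kind, with the start and stop of the main ORF, were listed in 17.8% of families and in 2 of 10 members, Irak1 and Irak2. ORFs from the same start had the same score in 77.5% of such pairs over the list and in 4 of 5 pairs in the members. The score thus does not tell these Irak2 or Irak1 variants apart. The pair with unequal scores was the 251- and 14-codon pair of Ticam2.

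**Figure D3:**
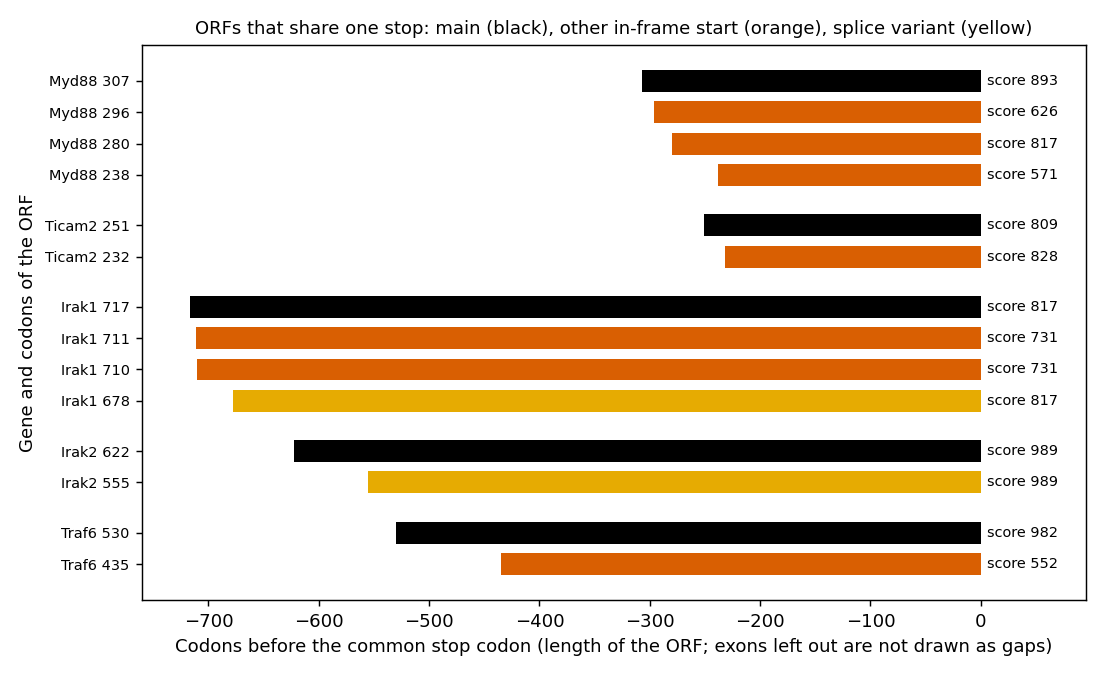
Lengths, in codons before the common stop codon (horizontal axis), of the ORFs that end at the main stop in Myd88, Ticam2, Irak1, Irak2 and Traf6, with each score at the right. Black bars are main ORFs, orange bars other in-frame starts and yellow bars splice variants; Myd88 shows 4 lengths from 238 to 307 codons.

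Irak3, the inhibitory family member also called IRAK-M, had a 609-codon main ORF (chromosome 10, 119579771 to 119638515, minus strand) that scored 942. Its second ORF, of 8 codons (119583609 to 119583635), scored 693 and lay on another listed transcript, in which 1 exon has 171 bases in place of 119. The extra 52 bases are no multiple of 3. The 8-codon ORF began 1028 bases after the main start on that transcript, which is neither the frame read from the main start nor that of the main ORF at this place. ORFs within the main span in another frame or exon were listed in 8.63% of families and in 1 of 10 members.

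Irak4, the kinase that begins the cascade on MyD88, had a 459-codon main ORF (chromosome 15, 94378274 to 94397477, plus strand) that scored 961. Its upstream ORF had 3 codons (94374116 to 94374127), began 56 bases into the same transcript and ended 137 bases before the main start. It scored 542, and 8.64% of the upstream ORFs in the list scored lower. It was the shortest upstream ORF of the members and the only one outside the adaptors.

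Traf6, the ubiquitin ligase downstream of the IRAKs, had a 530-codon main ORF (chromosome 2, 101524658 to 101537656, plus strand) that scored 982. A second ORF of 435 codons began in the first exon, at 101518767, on a listed transcript that skips 3 exons with 591 bases, among them the exon with the main start. It had 4 codons of its own and then the last 431 codons of the main ORF, and so lacked the first 99, in the part of TRAF6 where the RING finger lies. It scored 552, which is 430 below the main ORF and the widest such gap among the 7 other in-frame starts. Traf3, which relays the TRIF signal, had its 567-codon main ORF alone (chromosome 12, 112475790 to 112500271, plus strand), with a score of 944.

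Upstream ORFs were thus found in 4 of the 10 members, Tirap, Ticam1, Ticam2 and Irak4 (40.0%, exact Clopper-Pearson 95% interval 12.2 to 73.8), against 20.2% of all families. The shares of families with an upstream ORF include ORFs over the main start, of which the members had none. The interval, which covers counting error only, includes the share of all families. The count rests on the choice of the longest ORF as the main ORF and on the list's low scores. With the ORF of best score in place of the longest, it was 2 of 10 against 16.4%. With scores limited to at least 900, it was 0 of the 7 members that kept an ORF, against 5.76% of families that kept one. With scores limited to at least the median of 847, it was 0 of 9 against 7.96%. Other in-frame starts were found in 4 as well, Myd88, Ticam2, Irak1 and Traf6 (same interval), against 23.0%. Under the same score limits they were found in 0 of 7 and 0 of 9, against 0.428% and 1.21%. The 10 upstream ORFs had 3 to 101 codons with a median of 32.5, against 16 for the class over the list, and their median score was 834.5 against 776. Tirap alone gave 7 of them. An upstream ORF scored above its main ORF in 8 of 10 cases, 6 of them in Tirap. Over the list this was so for 32.9%, ORFs over the main start included. The Tirap cases share 1 main score, and the 101-codon ORF and 1 of the 66-codon ORFs share a start and a score. The low main scores of Tirap (615) and Ticam1 (541) stand beside that count, and the part of the main score in it was not tested. Of the 7 other in-frame starts, the 232-codon ORF of Ticam2 was the only one that scored above its main ORF. Their median score was 731, against 669 for the class. The 7 ORFs came from 6 start positions. The 711- and 710-codon ORFs of Irak1 share 1 start, and both have that median score, so it counts this start more than once.

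The leader before the main start had 78 to 900 bases in the members, with a median of 290, against 186 over all main ORFs. Tirap, with 608 bases, and Myd88, with 900, had the longest. Leaders of at least the length of that of Tirap belonged to 1253 families, of which 45.3% had an upstream ORF. For leaders of at least 900 bases the share was 43.7%. Myd88 had none, although 92.8% of main ORFs had shorter leaders. Irak2 and Irak3, at 81 and 78 bases, had the shortest leaders of the members and no upstream ORF, as was the case for all but 3.57% of families with leaders of at most 81 bases. The lengths are those of the listed transcripts. A longer leader offers more room for an upstream ORF, and its part in the counts was not tested. The 9 upstream ORFs on a transcript with the main start ended 5 to 195 bases before it, with a median of 154, against 117 over the list.

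**Figure D4:**
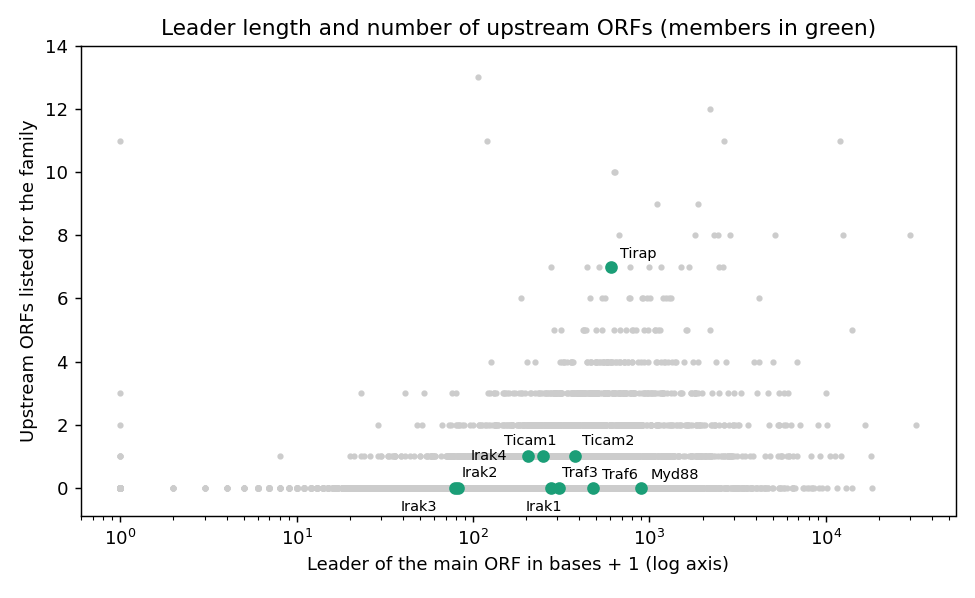
Leader length of the main ORF (horizontal axis, bases plus 1, log scale) and number of upstream ORFs (vertical axis, ORFs over the main start included) for all families (grey) and the 10 members (green, named). Tirap stands at 7 upstream ORFs with a leader of 608 bases, and Myd88 at 0 with 900 bases.

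Around the members, 60 of 67 other genes of the pathway had an ORF. Of these, 22 (36.7%, interval 24.6 to 50.1) had an upstream ORF, against 20.2% of all families. There were 17 (28.3%, interval 17.5 to 41.4) with another in-frame start, against 23.0% of all families. The main ORFs of the 60 genes had a median score of 941.5, against 926 over all main ORFs. No gene among them had as many upstream ORFs as Tirap, and Ikbke, the interferon-inducing kinase IKK epsilon, equalled Myd88 with 3 other in-frame starts. Of 16 receptors and co-receptors, 7 had upstream ORFs, with 4 in Tlr3, which signals through TRIF alone, and 3 in Cd180. Another in-frame start was listed in 5 of them, and Tlr8 had 2. In the TAK1, IKK and TBK1 kinase complexes, 5 of 12 genes had upstream ORFs, with 3 in Ikbkg, the regulatory subunit NEMO, and 2 in Tank, which binds TRAF3. Other TRAFs and ubiquitin ligases had them in 4 of 14 genes, with 2 each in Traf5 and Rbck1, and Traf7 had 2 other in-frame starts. Negative regulators had them in 6 of 14, with 3 in Otud7b, a deubiquitinase that acts on TRAF3, and other in-frame starts in 5 of 14, with 2 each in Tnip1 and Tnip3. None of 4 interferon regulatory factors, Irf1, Irf3, Irf5 and Irf8, had either kind. The intervals of these lists overlapped that of the members, and no difference between lists was tested.

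**Figure D5:**
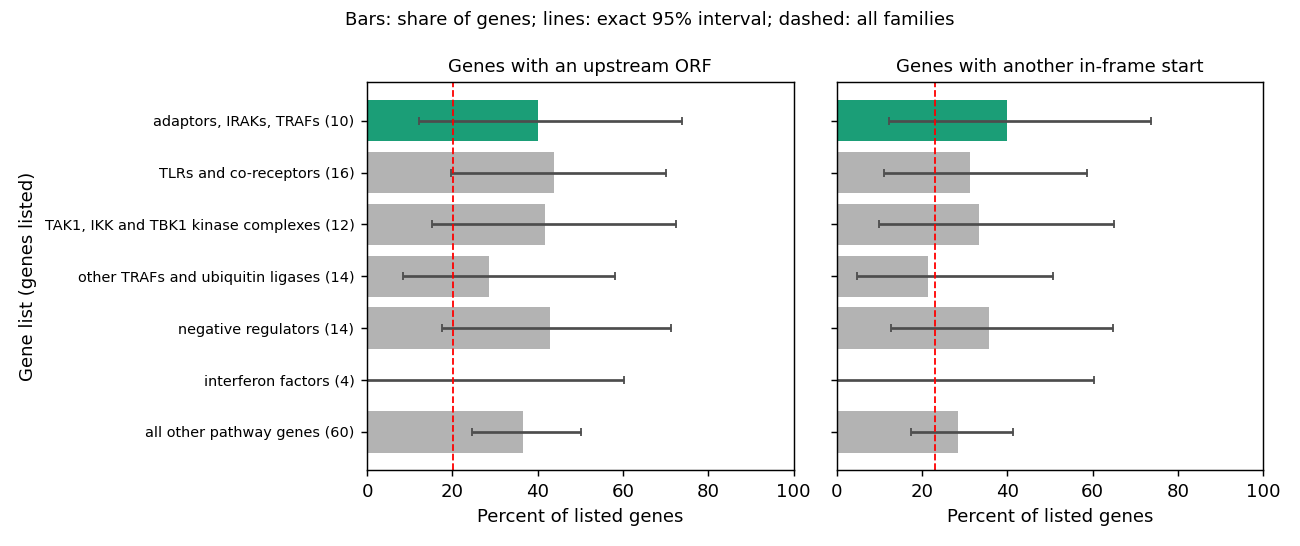
Percent of listed genes (horizontal axis) with an upstream ORF (left) or another in-frame start (right) in the 10 members (green) and other pathway genes (grey, number listed in brackets), with exact 95% intervals as lines and the share of all families as a dashed line. The members stand at 40.0% in both panels, with intervals that reach below the dashed lines.

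The labelled cell type was checked against marker genes with an ORF in the list. Dendritic cell markers had one in 9 of 10 genes, among them Itgax, Cd74 and Ciita, macrophage and monocyte markers in 7 of 8, neutrophil markers in 9 of 9, mast cell and basophil markers in 4 of 5 and fibroblast markers in 4 of 5. B cell markers had one in 1 of 5 genes and T cell markers in 1 of 5. The list gives no level for any of them. Which of these cells the members' footprints came from was not tested.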

How the data were processed

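Ribosome footprints, RNA fragments shielded by ribosomes, were sequenced from 37 libraries in 28 groups, per the labels' protocols. The submitters' processing notes name Bowtie2, TopHat and the mm9 build without versions. How ORFs were called and scored is not given in the sources used here. For every line, the deposited list gives the ORF's transcript's exon blocks, its span and the score assigned by the authors, with no value below 500. ORFs were grouped by name, chromosome and strand. Trailing numbers of names were dropped, except for assembled transcripts named by number. Each ORF was placed against the longest of its family by position and shared codons (Python 3.11.15, scipy 1.17.1). The length in the name matched the coding bases in all 22367 ORFs. Older names of pathway and marker genes were matched through RefSeq's gene table (GRCm38.p6), used for names only. The rules were tested on simulated data, with 3600 of 3600 ORFs of 400 families in their true class. The simulated ORFs were built from the class definitions, so this checks the code and not the classes of the members. All member ORFs are described. Pathway genes were eligible for naming per sub-list by most upstream ORFs and most in-frame starts, up to 4 each, and the text names a part of these. The members and lists were chosen with earlier results of these data known. No sequence is printed, because no genome of the mm9 build was used here.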

Additional observations from a re-analysis of the deposited data

How the results depend on the processing

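No paired analysis was possible because the single list has no value per library, so replicate numbers could not be used, and no replicate could be left out. Of 72 values under 8 alternatives, 49 stayed within 1.5 times the reported count, or, for the median main score, within the spread of the members' main scores, and 23 moved. With a score of 900 or more, the members kept 10 ORFs, with 0 upstream ORFs in 0 members and 0 other in-frame starts in 0 members, and the other pathway genes with an upstream ORF fell to 8 and those with another in-frame start to 1. At or above the median score of 847 these values were 12, 0, 0, 0, 0, 9 and 2. These settings left 7 and 9 of the 10 members with an ORF. Over the families that kept an ORF, the share with an upstream ORF was 5.76% and 7.96%, and with another in-frame start 0.428% and 1.21%. The members' count of 0 other in-frame starts is near its shares. Their count of 0 upstream ORFs does not mean that no such ORF passed the limits, since some changed class. Both settings removed the main ORFs of Tirap and Ticam1. The 101-codon ORF of Tirap and the 32-codon ORF of Ticam1 became main ORFs, and the 66- and 33-codon ORFs of Tirap that were left became a splice variant and an ORF within the main span. At the median score only the 31-codon ORF of Ticam2 was left, as its main ORF. The upstream ORF of Irak4 was removed by its score. With a minimum of 30 codons, 3 members and 13 other pathway genes had an upstream ORF, against 8.69% of the families that kept an ORF. With 1 ORF per stop codon, the members had 19 ORFs, and by construction 0 other in-frame starts in 0 members and 0 other pathway genes. With the main ORF chosen by score, 4 upstream ORFs in 2 members, Tirap and Irak4, were counted, against 16.4% of all families, and 14 other pathway genes had one. Counting splice variants as other in-frame starts gave 5 of 10 members and 26 of the 60 other pathway genes listed, against 37.8% of all families. Upstream ORFs only on a transcript with the main start, and 1 family per gene, moved none of these values past those limits. The planned use of RefSeq protein lengths to choose main ORFs was not run, because no protein sequences were used here. Depth per library is unknown, so whether a short or low-scoring ORF was missed cannot be told.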

Other observations

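Over the list, main ORFs of families with an upstream ORF had a median score of 879.5 (2104 families), against 934 in 8299 families without one. Main ORFs of families with another in-frame start had a median score of 763 (2394 families), against 945 in 8009 without one. These are the authors' scores over different families, given as a description with no test. Among the members, the 3 with both a main score below 900 and an upstream ORF were Tirap, Ticam1 and Ticam2. Myd88 (893) and Irak1 (817) had main scores below 900 and no upstream ORF. Irak4, with a main score of 961, had an upstream ORF.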
